A study of Mus musculus with 6 samples.

Results

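The genes described here build the centromere, the kinetochore and the spindle assembly checkpoint. They are 46 genes taken from a list of names, each matched to its row by the Ensembl gene identifier with its version, and all 46 were found among the 55450 gene rows. For bulk RNA-Seq, primary hepatocytes were isolated by collagenase perfusion from male C57BL/6 mice (C57BL/6J in the study's methods) on a normal diet. The mice were aged 10 to 12 weeks per the labels, while the study's methods give a somewhat younger age at surgery. Liver without surgery (0 h) gave 3 preparations, and liver 48 h after partial hepatectomy (PHx, an operation that takes away the larger part of the liver) gave the other 3. Each preparation came from a separate mouse, and the 0 h mice were not sham-operated, so surgery itself cannot be told apart from the loss of liver mass. The comparison asks how far the parts needed to segregate chromosomes were raised at 48 h, and whether the constitutive centromere and the outer kinetochore were raised alike.

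The centromere is marked by nucleosomes that hold CENP-A, a variant of histone H3, and the proteins of the constitutive centromere-associated network sit on this chromatin throughout the cell cycle. In mitosis the outer kinetochore is built on that base and binds spindle microtubules through the KMN network, named after Knl1, the Mis12 complex and the Ndc80 complex. The spindle assembly checkpoint watches this attachment and holds the cell before anaphase until every chromosome is attached, while the chromosomal passenger complex corrects wrong attachments. The regrowing liver is a classical setting of hepatocyte mitosis, which is scarce in the resting organ.

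Levels are given as CPM, gene counts scaled to the library total after TMM normalization, and changes as log2 fold changes of 48 h over 0 h with their standard error (SE), 3 libraries a group. Gene counts ranged from 31419443 to 36346220 per library, and 3 counts corresponded to 0.0840 to 0.102 CPM on this scale. The quasi-likelihood test of edgeR was run over 17037 genes with Benjamini-Hochberg adjustment, and a gene counted as higher or lower where its adjusted p was below 0.05. In bulk RNA, more cells that express a gene and more RNA per cell cannot be told apart.

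Of the 46 genes, all tested, 45 rose and none fell. The exception was Cenpb, whose difference did not pass the test. Over all genes tested, 21.4% were called higher and 19.3% lower. In 45 of the 46 genes every 48 h library was above every 0 h library, which held for 27.8% of all genes tested. A called rise with a log2 fold change of at least 2 was seen in 35 of the 46 genes, against 4.13% of all genes tested. The median log2 fold change was 4.23 over the 46 genes and -0.0033 over all genes tested, and the median level of the 46 genes went from 0.538 CPM at 0 h to 18.2 CPM at 48 h.

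**Figure D1:**
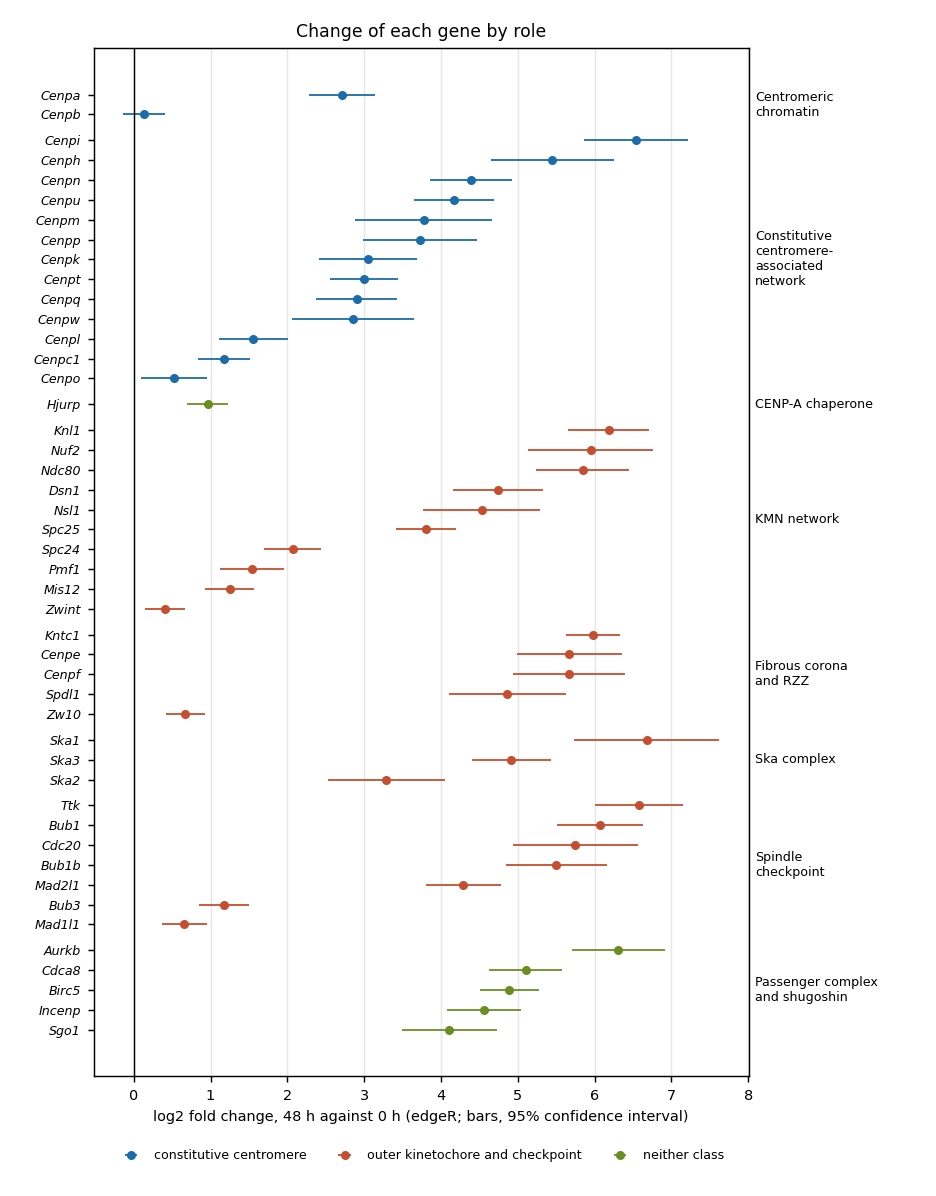
Log2 fold change of each of the 46 genes (horizontal axis, 48 h against 0 h, edgeR), grouped by role, with bars for the 95% confidence interval and colours for the class. The bar of Cenpb crosses 0, and every role except the passenger genes and the Ska complex has at least 1 gene below a log2 fold change of 1.

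The medians of the 2 classes lay apart, while their largest changes were close. Among the 15 constitutive centromere genes 14 rose, with a median log2 fold change of 3.0 and a range of 0.14 to 6.54. All 25 outer kinetochore and checkpoint genes rose, with a median of 4.86 and a range of 0.41 to 6.68. The difference of the medians was 1.86 on the log2 scale, and it lay between 1.58 and 1.97 when 1 library was left out at a time. Hjurp, the chromosomal passenger genes and Sgo1 belong to neither class. These 6 genes all rose, with a median of 4.73.

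The classes overlapped widely in their levels. At 0 h the median was 1.17 CPM for the constitutive centromere genes (0.0737 to 78.9) and 0.513 CPM for the outer genes (0.0308 to 32.2), and at 48 h it was 9.89 and 19.8 CPM. Among genes under 1 CPM at 0 h, the median log2 fold change was 4.17 for 7 constitutive centromere genes and 5.67 for 15 outer genes. The order turned among genes at 1 CPM or more at 0 h, where it was 2.14 for 8 constitutive centromere genes and 1.39 for 10 outer genes. Split instead by the mean over all 6 libraries, the medians were 2.72 for 3 constitutive centromere genes and 3.80 for 15 outer genes in the upper part, and 3.02 for 12 and 5.21 for 10 in the lower part. The 0 h level enters the fold change and the 48 h level weighs most in that mean, so neither split is independent of the change, and both are descriptions.

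In centromeric chromatin, Cenpa rose and Cenpb did not pass the test. Cenpa (ENSMUSG00000029177.9, chr5:30666777-30674830), which encodes the CENP-A histone itself, was at 4.22, 5.74 and 4.88 CPM at 0 h and at 36.3, 37.5 and 23.9 CPM at 48 h. The groups lay far apart, and the log2 fold change was 2.72 ± 0.19 (SE, adjusted p = 2.76e-06, edgeR). Cenpb (ENSMUSG00000068267.5, chr2:131175182-131180067), which encodes a protein that binds a short box in centromeric satellite DNA, was at 85.0, 67.5 and 84.1 CPM at 0 h and at 92.8, 88.9 and 78.9 CPM at 48 h. Here the groups overlapped, with 2 of the 0 h libraries above the lowest 48 h library. The log2 fold change of Cenpb was 0.14 ± 0.12 (SE, adjusted p = 0.40, edgeR) with a 95% interval from -0.13 to 0.41. Scaled by library size alone, Cenpb was called higher, with a log2 fold change of 0.34 (adjusted p = 0.0376, edgeR), but that scaling also moved the median of all genes tested to 0.20.

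Hjurp, the chaperone that loads CENP-A onto centromeres, had the highest level of the 46 genes at both times. It was at 174, 194 and 174 CPM at 0 h and at 351, 380 and 326 CPM at 48 h. The groups did not overlap, and the log2 fold change of 0.96 ± 0.12 (SE, adjusted p = 0.000145, edgeR) was small among these genes. Per kb of its median transcript, Hjurp was at 81.6 CPM at 0 h and 159 CPM at 48 h, against 5.46 and 35.9 for Cenpa on the same scale. The annotated exons of Hjurp cover 8331 bases together, while its median transcript has 2217, and counts per gene do not show which exons the reads fell on. The neighbour Mroh2a, 181 bases away on the opposite strand, went from a mean of 11.8 to 22.1 CPM, and its part in the Hjurp counts was not tested.

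**Figure D2:**
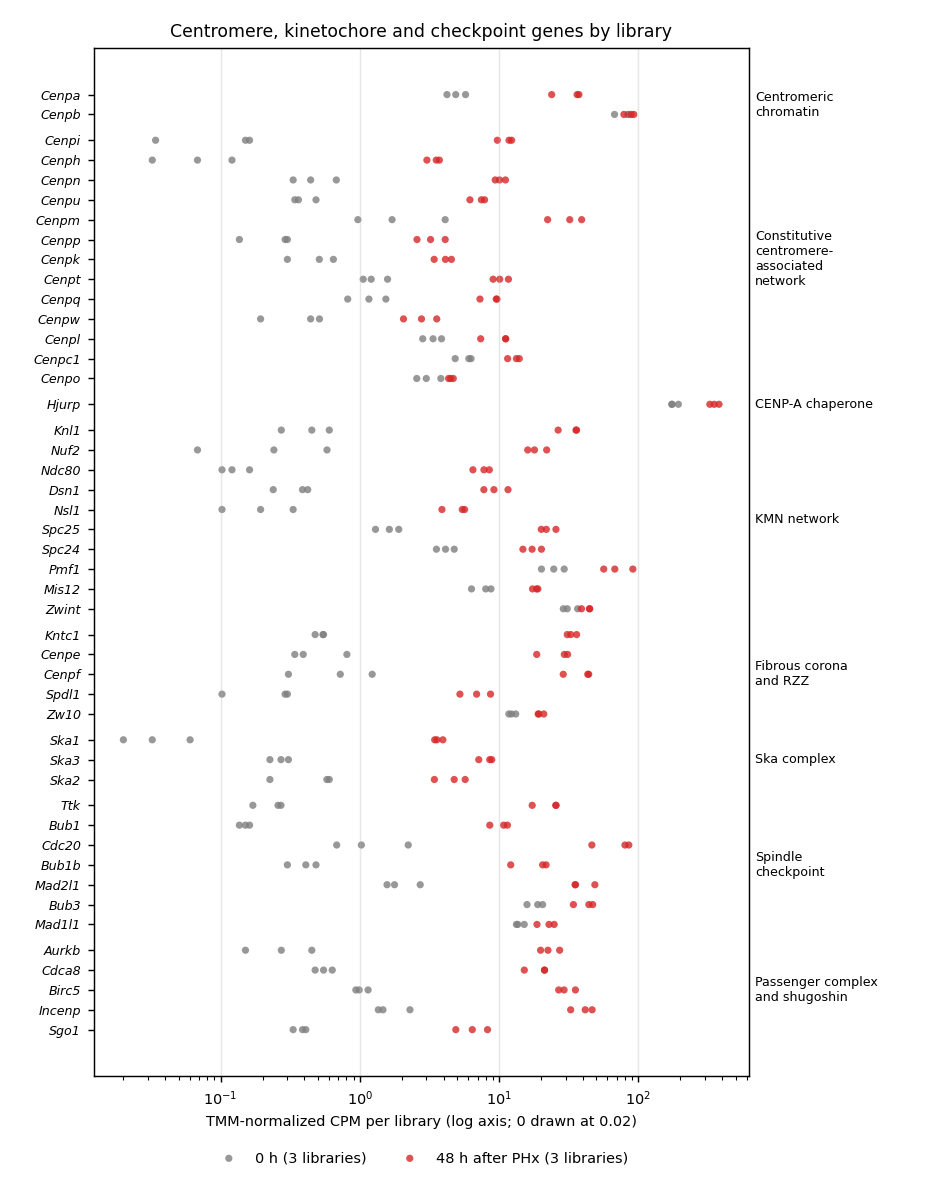
TMM-normalized CPM of each gene (horizontal log axis) in each of the 3 libraries at 0 h (grey) and the 3 at 48 h (red), grouped by role and ordered by log2 fold change. Red and grey points overlap only for Cenpb, and the library of Ska1 with no count is drawn at 0.02.

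All 13 listed genes of the constitutive centromere-associated network rose, Cenpo only at the threshold, with a median log2 fold change of 3.05. Cenpi and Cenph, which form a subcomplex with Cenpk and Cenpm, led the network with log2 fold changes of 6.54 and 5.45. The other members of that subcomplex, Cenpk and Cenpm, stood at 3.05 and 3.77. Cenpi (chrX:134308084-134362639) had 1, 5 and 5 counts at 0 h and 414, 421 and 340 counts at 48 h, or 0.034 to 0.161 CPM against 9.72 to 12.3 CPM. Every 48 h library was far above every 0 h library (log2 fold change 6.54 ± 0.31, SE, adjusted p = 1.31e-07, edgeR). The 0 h sum was 11 counts, and the ratio of the summed counts was 95.7, with an exact 95% interval for counting error alone of 53.3 to 192.

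Cenpm had the highest level of the listed network genes per kb of transcript at 48 h (31.4 CPM per kb). It was at 1.70, 0.968 and 4.10 CPM at 0 h and at 32.2, 39.2 and 22.3 CPM at 48 h, so that the third 0 h library stood above the other two of its group while the groups stayed apart. Its log2 fold change was 3.77 ± 0.40 (SE, adjusted p = 4.92e-05, edgeR), and 4.55 without that library.

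The Cenpo group (Cenpo, Cenpp, Cenpq and Cenpu) did not move as a block. Cenpp, Cenpq and Cenpu had log2 fold changes of 3.73, 2.90 and 4.17, while Cenpo was at 3.82, 3.0 and 2.56 CPM at 0 h and at 4.49, 4.34 and 4.69 CPM at 48 h. These groups were apart by less than the range within the 0 h libraries. The log2 fold change of Cenpo was 0.53 ± 0.19 (SE, adjusted p = 0.0496, edgeR), and this call was kept in 5 and lost in 10 of the 15 alternative fits, with adjusted p from 0.013 to 0.162. It was lost without 0 h replicate 2 or 3 and without any of the 48 h libraries, with adjusted p = 0.094, 0.162, 0.108, 0.104 and 0.122 (edgeR). Exons of genes on the opposite strand cover 22.5% of the exon bases of Cenpo and 26.7% of those of Cenpu, and whether the counting used strand is not given in the sources used here.

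The remaining genes of the network spread between these ends. Cenpc1, which ties the CENP-A nucleosome to the Mis12 complex, rose by a log2 fold change of 1.17, and its partner on that nucleosome, Cenpn, by 4.39. Cenpl, which pairs with Cenpn, was at 1.56. Cenpt and Cenpw, histone-fold proteins that form a second link to the outer kinetochore, were at 3.0 and 2.85.

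Each of the 10 KMN network genes rose, with a median log2 fold change of 4.16, and the network held both large and small changes. Knl1, the scaffold that recruits checkpoint proteins, was at 0.273, 0.452 and 0.603 CPM at 0 h and at 36.02, 35.7 and 26.6 CPM at 48 h. Its groups were separated widely (log2 fold change 6.18 ± 0.24, SE, adjusted p = 5.01e-08, edgeR). Zwint, the partner that Knl1 binds, was at 30.9, 28.9 and 36.7 CPM at 0 h and at 44.6, 44.8 and 39.1 CPM at 48 h. The groups of Zwint lay close without overlap, and its log2 fold change was 0.41 ± 0.12 (SE, adjusted p = 0.0176, edgeR). This call was lost on leaving out 0 h replicate 1, 48 h replicate 1 or 48 h replicate 2, with adjusted p = 0.0606, 0.0613 and 0.0727 (edgeR).

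Within the Ndc80 complex, the rod that grips microtubules, the microtubule-binding subunits Ndc80 and Nuf2 rose by log2 fold changes of 5.85 and 5.95. Nuf2 stood at 6.84 without 0 h replicate 2. The subunits at the other end of the rod, Spc25 and Spc24, rose by 3.80 and 2.07. In the Mis12 complex, Dsn1 and Nsl1 rose by 4.74 and 4.53, and Mis12 and Pmf1 by 1.25 and 1.54. Pmf1 (chr3:88394143-88410331) had the highest level of the KMN network per kb of transcript at 48 h (79.8 CPM per kb). In plain CPM it was at 24.7, 20.2 and 29.4 at 0 h and at 67.8, 91.4 and 56.5 CPM at 48 h. All its 48 h libraries exceeded its 0 h libraries (adjusted p = 0.000121, edgeR).

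Subunits of the same complex were closer to each other in level at 48 h than at 0 h. In CPM per kb of transcript, the highest over the lowest subunit of the Ndc80 complex went from 49.9 at 0 h to 4.62 at 48 h, and in the Mis12 complex from 375 to 45.7. The Ska complex went from 13.1 to 2.59 and the chromosomal passenger complex from 3.76 to 1.16. Scaled instead by the union of exons, the same ratios went from 81.7 to 6.04, from 154 to 18.8, from 12.4 to 2.21 and from 3.98 to 2.51. For Cenpo, Cenpp, Cenpq and Cenpu the outcome depended on the length used, with 7.23 to 2.06 per kb of transcript and 4.76 to 5.47 per kb of exon union. The lowest subunits at 0 h had few counts, as for Ska1 with 3 counts over its 3 libraries.

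**Figure D3:**
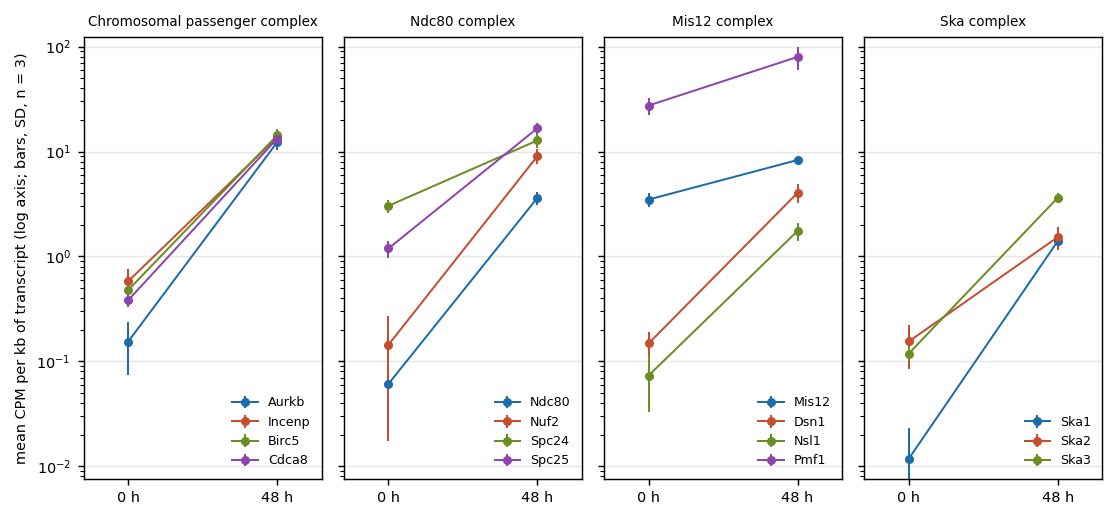
Mean CPM per kb of median transcript (log axis) for the subunits of 4 complexes at 0 h and 48 h, with bars for the SD over 3 libraries and lower bars cut where they would reach 0. The 4 passenger subunits meet between 12.3 and 14.2 at 48 h, while Pmf1 stays above the rest of the Mis12 complex.

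The fibrous corona and the RZZ complex, which load checkpoint proteins and the motor dynein, had the largest median change of any role, 5.67 over 5 genes that all rose. Kntc1, which encodes the Rod subunit of RZZ, was at 0.477, 0.548 and 0.543 CPM at 0 h and at 32.7, 36.1 and 30.9 CPM at 48 h. Both groups were tight, and its log2 fold change of 5.98 ± 0.16 had the smallest adjusted p of the 46 genes (SE, adjusted p = 1.74e-08, edgeR). Zw10, another RZZ subunit that also works in membrane traffic outside mitosis, was at 11.8, 13.2 and 12.3 CPM at 0 h and at 20.95, 19.1 and 19.3 CPM at 48 h. It rose by a log2 fold change of 0.67 ± 0.11 (SE, adjusted p = 0.000885, edgeR), with no overlap. The kinesin Cenpe, the coiled-coil protein Cenpf and the dynein adaptor Spdl1 had log2 fold changes of 5.67, 5.67 and 4.86.

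The Ska complex, which couples kinetochores to shrinking microtubules, rose in all 3 genes. Ska1 had 0, 1 and 2 counts at 0 h and 116, 141 and 125 counts at 48 h. The ratio of the summed counts was 114, with an exact 95% interval for counting error alone of 38.8 to 556 (adjusted p = 1.17e-06, edgeR). Its fitted log2 fold change of 6.68, which became 7.49 without 0 h replicate 3, is no bound at such counts. Ska2 was at 0.579, 0.226 and 0.603 CPM at 0 h and at 5.71, 4.76 and 3.43 CPM at 48 h, a log2 fold change of 3.29 ± 0.34 (SE, adjusted p = 4.00e-05, edgeR). Ska3 was at 0.307, 0.226 and 0.271 CPM at 0 h and at 8.86, 8.57 and 7.15 CPM at 48 h, a log2 fold change of 4.92 ± 0.23 (SE, adjusted p = 1.39e-07, edgeR). Neither of them had overlapping groups.

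The 7 checkpoint genes all rose, with a median log2 fold change of 5.50. Promoters of 3 of them, Ttk, Bub1 and Cdc20, are printed here because these genes had the 3 largest changes of the role and carry a cell cycle homology region (CHR) close to the start. The promoters of Cenpm, Cenpb and Zwint stand beside them, for a constitutive centromere gene with both a CHR and an E2F-like run and for the smallest change of each class. They were chosen after the values were seen and come from RefSeq on GRCm38.p6, each with 250 bases before and 50 after the start site, 5′ to 3′ on the strand of the gene. Capitals mark the CHR (TTTGAA or TTCGAA), the box CCAAT and E2F-like letters (TTCCCGC or TTGGCGC), each read on either strand.
Ttk, chr9:83834439-83834738, plus strand: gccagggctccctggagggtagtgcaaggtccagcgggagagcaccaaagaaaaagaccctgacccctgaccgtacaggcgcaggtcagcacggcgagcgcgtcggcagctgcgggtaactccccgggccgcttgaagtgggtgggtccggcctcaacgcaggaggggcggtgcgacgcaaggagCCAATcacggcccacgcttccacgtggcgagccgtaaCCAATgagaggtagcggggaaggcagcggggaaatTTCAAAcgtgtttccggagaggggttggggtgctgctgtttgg
Bub1, chr2:127831810-127832109, minus strand: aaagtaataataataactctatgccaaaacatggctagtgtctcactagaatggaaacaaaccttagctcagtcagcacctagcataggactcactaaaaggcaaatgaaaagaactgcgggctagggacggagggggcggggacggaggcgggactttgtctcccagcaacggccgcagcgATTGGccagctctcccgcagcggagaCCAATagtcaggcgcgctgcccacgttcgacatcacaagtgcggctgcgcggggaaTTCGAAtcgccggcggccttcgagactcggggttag
Cdc20, chr4:118437294-118437593, minus strand: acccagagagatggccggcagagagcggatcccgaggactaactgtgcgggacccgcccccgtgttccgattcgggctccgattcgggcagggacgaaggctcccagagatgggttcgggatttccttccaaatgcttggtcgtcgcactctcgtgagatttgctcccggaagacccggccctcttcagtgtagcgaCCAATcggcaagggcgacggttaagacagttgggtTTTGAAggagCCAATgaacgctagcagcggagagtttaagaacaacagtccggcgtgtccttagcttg
Cenpm, chr15:82244287-82244586, minus strand: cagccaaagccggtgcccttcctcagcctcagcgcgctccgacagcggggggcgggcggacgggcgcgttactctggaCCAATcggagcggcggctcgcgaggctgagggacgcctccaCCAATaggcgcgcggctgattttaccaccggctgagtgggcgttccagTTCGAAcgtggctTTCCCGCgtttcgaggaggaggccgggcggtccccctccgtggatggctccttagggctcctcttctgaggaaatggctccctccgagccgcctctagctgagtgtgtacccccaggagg
Cenpb, chr2:131180018-131180317, minus strand: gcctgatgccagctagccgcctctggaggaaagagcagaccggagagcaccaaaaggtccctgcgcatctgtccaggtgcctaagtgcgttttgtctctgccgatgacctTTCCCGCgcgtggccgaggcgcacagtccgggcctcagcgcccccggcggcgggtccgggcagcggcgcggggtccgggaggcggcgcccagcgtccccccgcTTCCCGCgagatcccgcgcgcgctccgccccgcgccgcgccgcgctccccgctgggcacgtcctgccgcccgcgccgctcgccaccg
Zwint, chr10:72654596-72654895, plus strand: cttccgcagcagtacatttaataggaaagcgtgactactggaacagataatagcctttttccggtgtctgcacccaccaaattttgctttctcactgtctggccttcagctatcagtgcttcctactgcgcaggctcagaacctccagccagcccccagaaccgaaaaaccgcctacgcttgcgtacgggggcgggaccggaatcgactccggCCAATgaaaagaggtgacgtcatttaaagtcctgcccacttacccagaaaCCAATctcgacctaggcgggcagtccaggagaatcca

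In these promoters the CHR of Ttk began at position 8, that of Bub1 at 15 and that of Cdc20 at -18. Positions count from the boundary between the 250 bases before and the 50 bases after the start, without a position 0. Each of the 3 also held 2 CCAAT boxes. Cenpm held a CHR at -83 and an E2F-like run at -70. The promoter of Cenpb held 2 E2F-like runs and neither a CHR nor CCAAT, and that of Zwint held 2 CCAAT boxes alone.

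Ttk, the kinase that starts checkpoint signalling, was at 0.170, 0.258 and 0.271 CPM at 0 h and at 25.7, 25.5 and 17.3 CPM at 48 h. Its groups were separated widely (log2 fold change 6.58 ± 0.26, SE, adjusted p = 5.41e-08, edgeR). Cdc20, the activator of the anaphase-promoting complex that the checkpoint restrains, reached the highest level of the checkpoint genes, with 0.681, 2.23 and 1.02 CPM at 0 h and 85.5, 80.2 and 46.4 CPM at 48 h. The third 48 h library was well below the other two, yet all of them were above the 0 h libraries (log2 fold change 5.75 ± 0.37, SE, adjusted p = 1.20e-06, edgeR). Without 0 h replicate 2, its highest at 0 h, the log2 fold change was 6.35.

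At the lower end of the checkpoint genes stood Mad1l1, which encodes the Mad1 platform that also resides at nuclear pores. It was at 13.3, 15.2 and 13.6 CPM at 0 h and at 24.9, 22.8 and 18.7 CPM at 48 h, without overlap (log2 fold change 0.66 ± 0.13, SE, adjusted p = 0.00272, edgeR). Its partner Mad2l1, which encodes the inhibitor Mad2, rose by a log2 fold change of 4.29. The kinase Bub1 and the inhibitor Bub1b (BubR1) rose by 6.07 and 5.50, while Bub3, the adaptor that both of them bind, rose by 1.18.

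All 4 chromosomal passenger genes rose. Aurkb, the kinase of the complex, was at 0.273, 0.452 and 0.151 CPM at 0 h and at 22.4, 27.2 and 19.9 CPM at 48 h. The groups lay far apart (log2 fold change 6.31 ± 0.27, SE, adjusted p = 8.71e-08, edgeR). Birc5 (survivin), which directs the complex to centromeres, was at 0.988, 0.935 and 1.15 CPM at 0 h and at 29.3, 35.4 and 26.8 CPM at 48 h, a log2 fold change of 4.89 ± 0.17 (SE, adjusted p = 3.20e-08, edgeR). Incenp, the scaffold, and Cdca8 (borealin) rose by 4.56 and 5.10. Sgo1 (shugoshin), the protector of centromeric cohesion, was at 0.409, 0.387 and 0.332 CPM at 0 h and at 6.42, 8.26 and 4.89 CPM at 48 h, with a log2 fold change of 4.11 ± 0.28 (SE, adjusted p = 1.83e-06, edgeR). Neither Birc5 nor Sgo1 had overlapping groups.

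The 7 genes already at 10 CPM or more at 0 h had a smaller median change than the rest. They were Cenpb, Hjurp, Zwint, Pmf1, Zw10, Bub3 and Mad1l1, with a median log2 fold change of 0.67 and none above 1.54. For the 39 other genes the median was 4.56, though Cenpo, Cenpc1 and Mis12 among them were at 0.53, 1.17 and 1.25. Over the 46 genes, the log2 level at 0 h and the log2 fold change had a Pearson r of -0.85 and a Spearman rho of -0.79, given as a description because the 0 h level is part of both. The levels at 0 h and at 48 h had an r of 0.69 and a rho of 0.63, over genes measured in the same libraries. None of the 7 belonged to the 13 listed genes of the constitutive network, the Ska complex or the passenger genes. Cenpx, Cenps and Itgb3bp, which also encode centromere proteins, were placed in a further list outside the 46 genes. Their mean levels at 0 h were 27.4, 0.0409 and 0.956 CPM, and their log2 fold changes 0.54, 4.79 and 1.63. The absence from the network thus depends on how the list was drawn.

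**Figure D4:**
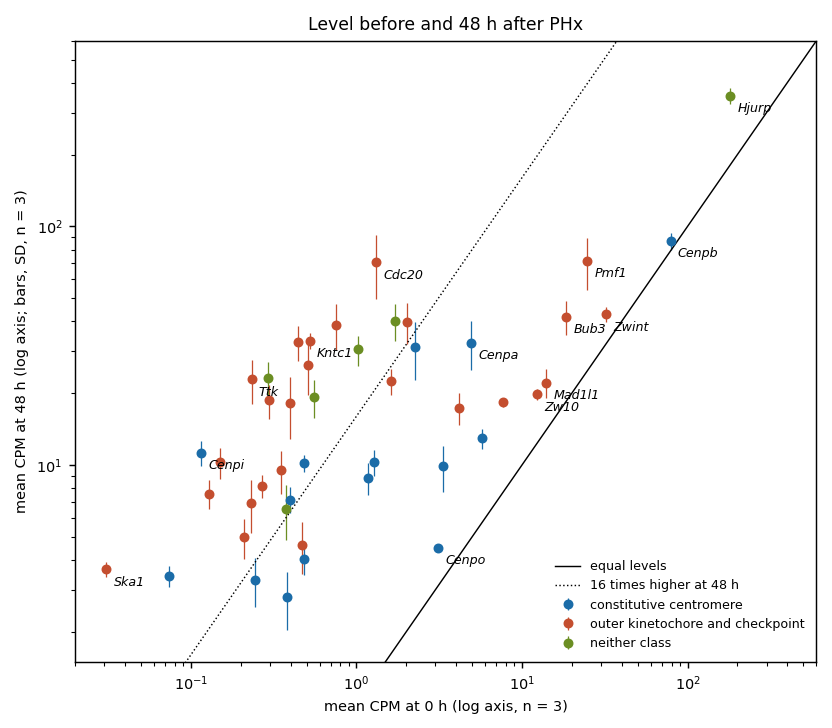
Mean CPM at 48 h (vertical log axis, bars SD, n = 3) against mean CPM at 0 h (horizontal log axis, n = 3) for the 46 genes, coloured by class. Genes at 10 CPM or more at 0 h lie near the line of equal levels, and most genes under 1 CPM at 0 h lie above the dotted line of a 16 times higher level.

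The promoters of the 46 genes were compared with those of other genes for the same 3 motifs. RefSeq promoters were matched for 41 of the genes (45 promoters), and Aurkb, Spc24, Ska1, Incenp and Nsl1 were not matched. A CHR was found in 51.1% of these 45 promoters, in 19.2% of all 32851 promoters and in 14.5% of the promoters of genes tested. The shares with CCAAT were 68.9%, 37.4% and 37.6%, and those with an E2F-like run 26.7%, 6.81% and 11.1%. A CHR beginning no more than 50 bases before the start site, a window set later than the motifs, was held by 40.0%, 5.31% and 3.77%. A CHR and a CCAAT box shared 1 base in the promoters of Cdca8, Cenpw and Kntc1, and an E2F-like run and a CCAAT box shared 4 bases in that of Ska2.

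The motif content differed in its values between the classes. Of the 17 promoters of constitutive centromere genes, 29.4% held a CHR, 47.1% an E2F-like run and 76.5% CCAAT. Of the 24 promoters of outer genes, 62.5% held a CHR, 16.7% an E2F-like run and 62.5% CCAAT. By size of change, a CHR anywhere in the window was held by 61.9% of the 21 promoters of genes with a log2 fold change of at least 4 and by 41.7% of the 24 promoters of the others. For a CHR near the start site the shares were 61.9% and 20.8%, for CCAAT 66.7% and 70.8%, and for an E2F-like run 19.0% and 33.3%. By level, 55.6% of the 9 promoters of genes at 10 CPM or more at 0 h and 18 of the 36 others held a CHR anywhere, and 22.2% and 44.4% held one near the start site. Shares count promoters, and these 9 and 36 promoters belong to 7 and 34 genes. The 17 and 24 promoters of the classes belong to 15 and 22 genes. Bub3 has overlapping promoters that hold the same CHR, and Mad1l1 and Cenpk also have several promoters. Between the classes, 3 of the 17 promoters of constitutive centromere genes and 12 of the 24 of outer genes held one near the start site. These shares are descriptions of letters in a window and were not tested. They show no binding.

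**Figure D5:**
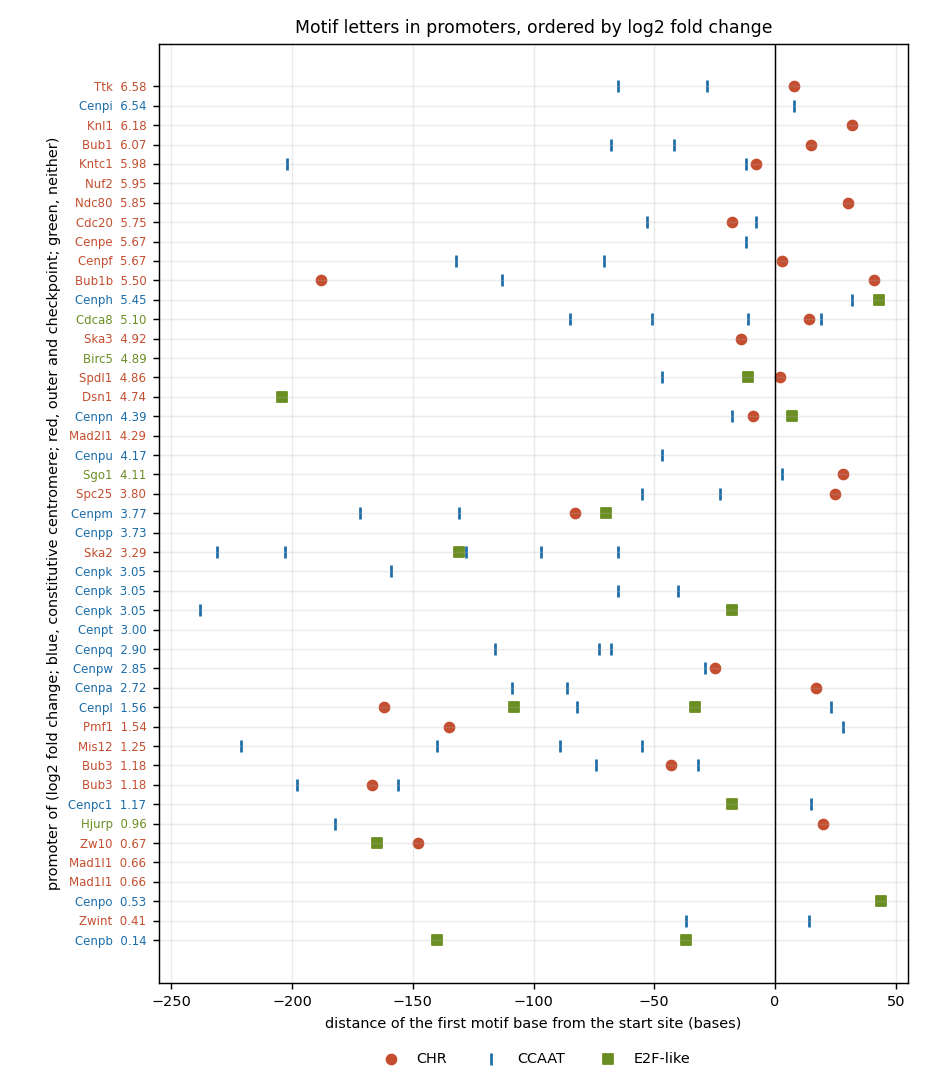
Position of CHR, CCAAT and E2F-like letters (symbols) relative to the start site, in bases, in the 45 promoters, 1 row each, ordered by log2 fold change and coloured by class. CHR symbols gather within 50 bases of the start site in the upper rows, where 13 of the 21 promoters of genes with a log2 fold change of at least 4 hold one there.

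The libraries did not contribute alike. The third 48 h library was the lowest of its group in 39 of the 46 genes and the second was the highest in 26. At 0 h the first library was the lowest in 28 genes and had 7 genes at 3 counts or fewer. Without the third 48 h library 44 of the 46 genes were called higher and the median log2 fold change was 4.31. Markers of other cells were read in the same libraries, and the endothelial list had the most called genes. For comparison, 21.4% of all genes tested were called higher and 19.3% lower. The summed level of 10 Kupffer cell and macrophage markers was 78.4 to 118 CPM at 0 h and 112 to 137 CPM at 48 h (2 higher, none lower). That of 10 endothelial markers was 224 to 351 and 166 to 185 CPM (none higher, 9 lower), that of 10 stellate cell and fibroblast markers 68.0 to 110 and 60.8 to 73.6 CPM (2 higher, 2 lower), and that of 8 cholangiocyte markers 35.3 to 63.5 and 47.9 to 59.6 CPM (2 higher, none lower). Of 10 lymphocyte markers 8 were at 3 counts or fewer in every library, Cd3d among them. Of 10 neutrophil markers 7 were so, S100a8, S100a9 and Ly6g among them, while Prtn3, the only marker of the list with enough counts for the test, went from 2, 2 and 5 to 697, 519 and 309 counts. Elane went from 5, 1 and 3 to 13, 16 and 8 counts and Camp from 2, 3 and 0 to 6, 19 and 26. The summed neutrophil markers stood at 0.194 to 0.477 CPM at 0 h and at 9.83 to 21.4 CPM at 48 h, without overlap. Prtn3 alone was at 8.83 to 20.7 CPM at 48 h. The summed hepatocyte markers stood at 89798 to 108301 CPM at 0 h and at 56868 to 72532 CPM at 48 h (1 higher, 4 lower). Their part in the rise of the 46 genes was not tested.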

How the data were processed

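Bulk RNA-Seq of 6 mouse hepatocyte libraries was analysed, 3 at 0 h and 3 at 48 h after PHx, grouped by the sample labels. The authors deposited raw read counts per gene in the layout of htseq-count. The submitters' processing notes name FastQC 0.11.5, Trim Galore 0.6.4, STAR 2.6, HTSeq 0.12.4, DESeq2 and the build mm10. The strand setting and counting mode are not given in the sources used here. All 55450 gene identifiers matched GENCODE M21, which gave names, coordinates and lengths. Lines that name no gene were left out of library sizes, with 24.3% to 32.7% (no feature) and 4.27% to 5.29% (ambiguous) of the reads.

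The 17037 genes that reached 10 counts in 3 or more libraries entered the test of edgeR 4.0.16 under R 4.3.3 (TMM, glmQLFit, glmQLFTest, time as the only term, Benjamini-Hochberg adjustment, adjusted p under 0.05), after a test on simulated data. P-values measure the spread between 3 mice a group. CPM values were TMM-normalized, and intervals on summed counts cover counting error only. Alternatives were DESeq2 1.42.0, voom in limma 3.58.1, other scalings and filters, the replicate number as a block, and each library left out.

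The members and lists were chosen with earlier results of these data known. In each role, per-library values are given for the largest and smallest changes, genes that did not pass, and the highest length-scaled level at 48 h. In the further lists, the 2 largest and 2 smallest changes are named, and also Cenpx, Cenps, Itgb3bp and Espl1.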

Additional observations from a re-analysis of the deposited data

How the results depend on the processing

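Over 15 alternative fits of each of the 46 genes (690 results in all), 676 kept direction and side of the threshold, none reversed, and only Cenpb, Cenpo and Zwint changed their call. Between 44 and 46 genes were called higher with other scalings, filters and tools, and 43 to 44 when 1 library was left out. Scaling by library size alone raised the median log2 fold change to 4.43 for the 46 genes and 5.07 for the outer genes, lowered the count of lower cohesin genes to 1, and moved the median of all genes tested to 0.20. All-gene calls were then 5309 higher and 2108 lower, against 3638 and 3288. Leaving out 1 library gave 4.54 to 5.03 for the median of the outer genes, 1.58 to 1.97 for the difference of the medians, and 1 to 2 lower cohesin genes. Libraries that share a number come from separate mice, and their deviations had correlations of 0.04, -0.09 and -0.17. With 3 libraries a group these values cannot exclude that libraries of the same number were handled together. With the replicate block 44 of the 46 genes were called higher, 1 cohesin gene was lower, and calls over all genes were 3237 higher and 2884 lower. Depth limits the 0 h level of genes near 3 counts, whose fold changes have wide counting intervals.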

Other observations

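A list of 25 further centromere and kinetochore genes, drawn up with results of these data known, also moved upward. In it 20 rose, none fell and 5 did not pass the test, against 21.4% higher and 19.3% lower among all genes tested. The median log2 fold change of the list was 2.41. Plk1, the mitotic kinase that acts at kinetochores, was at a mean of 0.745 ± 0.212 CPM at 0 h and 53.7 ± 13.3 CPM at 48 h (SD, n = 3). Kif2c, a microtubule-depolymerizing kinesin of the centromere, went from 0.357 ± 0.192 to 20.9 ± 6.77 CPM (SD, n = 3). Their log2 fold changes of 6.16 and 5.84 were the largest of the list. The smallest were those of Bod1l at -0.09 and Clasp1, a microtubule plus-end protein, at 0.26, neither past the test (adjusted p = 0.522 and 0.0617, edgeR).

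Of 15 genes of cohesin, the ring that holds sister chromatids together, 8 rose, 2 fell and 5 did not pass the test. Among all genes tested 21.4% were called higher and 19.3% lower, so the 2 falls stayed under the general share. The median log2 fold change of the 15 genes was 0.42. The largest changes were those of Cdca5 (sororin), which protects cohesin from release, at 6.30 ± 0.33 and of the acetyltransferase Esco2 at 6.02 ± 0.26 (SE, adjusted p = 2.82e-07 and 8.98e-08, edgeR). Cdca5 stood at 6.96 without 0 h replicate 2. Mau2, part of the cohesin loader, fell from 43.5 ± 4.28 to 29.98 ± 2.93 CPM (SD, n = 3), and Pttg1, which encodes securin, fell from 11.4 ± 1.31 to 8.64 ± 0.556 CPM (SD, n = 3). The log2 fold change was -0.54 for Mau2 (adjusted p = 0.004, edgeR) and -0.40 for Pttg1 (adjusted p = 0.0392, edgeR). The call of Pttg1 was lost in 7 of 15 alternative fits, with adjusted p up to 0.268: with library size alone, with the replicate block, and on leaving out 0 h replicate 1 or 3 or any 48 h library. Mau2 was called lower in all 15. Espl1, the separase that securin inhibits, rose by a log2 fold change of 5.49.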
